A study of Mus musculus with 40 samples.

Results

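The proto-oncogene Myc and 6 genes of polyamine metabolism, Odc1, Amd1, Srm, Azin1, Sat1 and Smox, were followed in mouse aortas during the first 24 h of angiotensin II (Ang-II) infusion. They are 7 of the 17402 genes listed in one RNA sequencing experiment and of the 15399 genes listed in another, and all 7 were listed in both. They were matched by gene symbol and chosen by an earlier result of these data, namely that Myc responded to Ang-II according to genotype, and because Odc1 carries a score in the study's list of genes linked to hypertension. The time of that earlier result is not recorded, so Myc in the genotype experiment, and every member at 2 h in the Cn-Ctl, SM-Cn-/- and WT groups and between genotypes or between CsA and WT, are described without a test.

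Myc is a transcription factor that pairs with Max and binds E-box sequences, and cells that leave the resting state commonly induce it early. It is known for driving genes of ribosome assembly and of growth metabolism. Polyamines are small positively charged amines that growing cells need for translation. Odc1, ornithine decarboxylase, makes putrescine from ornithine and is a classic Myc target. Amd1, S-adenosylmethionine decarboxylase, supplies the aminopropyl groups with which Srm, spermidine synthase, turns putrescine into spermidine. Azin1, the antizyme inhibitor, protects ornithine decarboxylase from degradation, while Sat1, spermidine/spermine acetyltransferase, and Smox, spermine oxidase, act in polyamine breakdown.

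The samples were 40 libraries in 14 groups of male mice, and each library pooled 3 aortas from which adventitia and perivascular tissue had been removed. In the genotype experiment (22 libraries), the labels give every library as carrying floxed CnB1 (Ppp3r1, the gene of the calcineurin regulatory subunit), and every mouse received 1 mg tamoxifen daily for 5 days and was used 6 weeks later. SM-Cn-/- mice carried Myh11-CreERT2, a tamoxifen-inducible Cre driven by the smooth muscle myosin promoter, and the Cn-Ctl libraries are labelled Cre-negative. The study also counts Cre-carrying mice without the floxed allele as Cn-Ctl, but no library here has that label. Both genotypes were untreated or received Ang-II by minipump at 1 µg per kg per min for 2, 6 or 24 h, and treated Cn-Ctl mice, unlike SM-Cn-/- mice, were selected for raised systolic pressure. In the drug experiment (18 libraries), C57BL/6J wild-type (WT) mice were untreated or received Ang-II for 2 or 24 h, with or without cyclosporin A (CsA), a calcineurin inhibitor given by minipump for 5 days. WT mice had no pump in place of the CsA pump, so the drug and its pump cannot be told apart. Treated mice of both arms were selected for raised pressure. Each group held 3 libraries, except 2 in untreated Cn-Ctl and 2 in Cn-Ctl at 24 h.

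Values are the authors' normalized signal, a read count scaled to a common library size, with totals of 877580 to 1179400 per library. Total reads ranged from 2.73 to 10.3 M per library in the genotype experiment and from 18.98 to 38.9 M in the drug experiment, so low genes are measured more precisely in the latter. Log2 differences were taken on log2(signal + 0.5), which understates the change of low genes such as Myc. Adjusted p-values are from limma, with Benjamini-Hochberg adjustment over all 14424 or 13738 protein-coding genes tested, and measure the spread between pools of aortas. Total Ppp3r1 signal did not separate the genotypes, at 45.7 to 133.9 over the Cn-Ctl libraries and 41.8 to 117.7 over the others. A per-gene total does not show whether the floxed part is present, and therefore does not check the labels.

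Smooth muscle markers (Myh11, Acta2, Tagln, Cnn1, Smtn) dominated every library. Their summed signal spanned 26760 to 48420 over the Cn-Ctl libraries, against 20200 to 30830 over those of SM-Cn-/-, and 23220 to 34520 over WT, against 15670 to 26820 over CsA. The sum of 5 endothelial markers spanned 285.6 to 577.2 over Cn-Ctl, against 522.3 to 1279 over SM-Cn-/-, and 334.6 to 717.8 over WT, against 712.3 to 1197 over CsA. Adipocyte markers summed to 448.6 to 1366 in WT and 1342 to 3919 in CsA. All 5 markers of each of these lists were listed, and none was at 0 throughout a group. Smooth muscle sums thus ran lower and endothelial sums higher in SM-Cn-/- and in CsA. These ranges overlapped over all times pooled but mostly not within a time. Smooth muscle sums overlapped only at 2 h between genotypes and only at 24 h between WT and CsA. Untreated, they were 24800 to 34010 in WT and 15670 to 17720 with CsA. Endothelial sums overlapped only at 6 h between genotypes and only at 24 h between WT and CsA. Adipocyte sums of WT and CsA overlapped at no time. The part of these marker differences in the results below was not tested. In bulk tissue, fewer cells of a type and less RNA per cell cannot be told apart.

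Odc1, Amd1 and Sat1 are shown by their start regions from the RefSeq promoter table (GRCm38.p6), since they stand for synthesis and for breakdown. Each sequence ends just before the gene start of the GENCODE annotation and reads 5′ to 3′ on the gene's strand. For Odc1 the RefSeq start lies further downstream, so only 3 of the 4 GC boxes of its window are shown. Capitals mark GC boxes (GGGCGG or CCGCCC) and the TATA-type motif TATATAA, whose matches on opposite strands overlap in Amd1.
Odc1, chr12:17544623-17544793, plus strand: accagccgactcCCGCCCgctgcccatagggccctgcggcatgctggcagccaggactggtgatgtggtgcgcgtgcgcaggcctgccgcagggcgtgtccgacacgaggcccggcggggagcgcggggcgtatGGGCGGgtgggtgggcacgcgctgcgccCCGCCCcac
Amd1, chr10:40302189-40302438, minus strand: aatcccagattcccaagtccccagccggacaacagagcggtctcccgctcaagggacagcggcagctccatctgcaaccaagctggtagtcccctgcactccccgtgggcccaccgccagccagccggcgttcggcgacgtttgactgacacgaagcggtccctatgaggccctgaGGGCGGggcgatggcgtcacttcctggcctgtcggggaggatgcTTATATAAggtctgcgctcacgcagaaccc
Sat1, chrX:155216450-155216699, minus strand: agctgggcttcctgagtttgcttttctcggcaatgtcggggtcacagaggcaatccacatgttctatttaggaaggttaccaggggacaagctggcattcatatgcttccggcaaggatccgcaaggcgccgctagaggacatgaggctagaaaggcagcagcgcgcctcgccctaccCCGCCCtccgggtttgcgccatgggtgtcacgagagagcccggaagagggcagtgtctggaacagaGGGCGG
In the 300-base windows of these 3 genes and of Smox, GC boxes numbered 4 in Odc1, 1 in Amd1, 2 in Sat1 and 6 in Smox, and a GC box was found in 35.7% of all 32851 promoters of the table. The E-box CACGTG (7.15% of all promoters), the cyclic AMP element TGACGTCA (1.79%) and the AP-1 motif TGACTCA (5.20%) were in none of the 4 windows on either strand. TATATAA was in 3.24% of all promoters. No match says only that these letters are not in the window. Myc, Srm and Azin1 are not in the table.

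Amd1 is also known for a short reading frame in its 5′ leader whose translation responds to polyamines, and this frame is shown with its start and stop codons in capitals.
Amd1 leader, chr10:40302155-40302175, minus strand: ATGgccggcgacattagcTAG
It holds 6 codons before the stop and lies ahead of the main coding sequence in 1 of the 2 annotated protein-coding Amd1 transcripts. RNA levels such as those below say nothing of its use.

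In untreated aortas the order of the 7 genes was led by breakdown and ended with Myc. Per kilobase of exon, the mean signal in untreated WT aortas was 69.4 for Sat1, 30.2 for Odc1, 20.9 for Amd1, 18.2 for Srm, 15.3 for Azin1, 2.10 for Smox and 0.969 for Myc. Untreated Cn-Ctl aortas had Sat1 (121.3 per kilobase), Odc1 (28.3) and Amd1 (20.3) at the top and Smox (0.742) and Myc (0.527) at the bottom as well, while Azin1 (13.7) stood above Srm (8.66). Levels are compared only within each experiment, since the tables were normalized separately.

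Myc (ENSMUSG00000022346, GRCm38 chr15:61985391-61990374, plus strand) was the member with the widest range. In Cn-Ctl its signal was 1.68 and 1.19 in the untreated libraries, which rest on 11 and 6 reads, then 48.6, 46.3 and 32.8 at 2 h, 11.8, 20.5 and 40.9 at 6 h, and 10.2 and 26.5 at 24 h. In SM-Cn-/- it was 2.61, 8.04 and 3.03 untreated, 5.72, 2.77 and 6.54 at 2 h, 6.19, 8.67 and 4.34 at 6 h, and 7.54, 4.40 and 2.99 at 24 h. Every treated Cn-Ctl library (8 libraries, 10.2 to 48.6) thus lay above every SM-Cn-/- library, treated or not (12 libraries, 2.61 to 8.67), and the 9 treated SM-Cn-/- libraries overlapped the untreated ones. The log2 difference from untreated in Cn-Ctl was 4.47 ± 0.55 (SE) at 2 h, a 22.2-fold difference, 3.53 ± 0.55 at 6 h and 3.15 ± 0.60 at 24 h, and the last was 2.48 without the third 24 h library. The same difference in SM-Cn-/- was 0.20 ± 0.49 at 2 h, 0.55 ± 0.49 at 6 h and 0.18 ± 0.49 at 24 h. The SM-Cn-/- minus Cn-Ctl difference (log2) was -3.02 ± 0.49 at 2 h, -1.73 ± 0.49 at 6 h and -1.72 ± 0.55 at 24 h. Untreated SM-Cn-/- lay above untreated Cn-Ctl, with a difference of 1.25 ± 0.55.

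**Figure D1:**
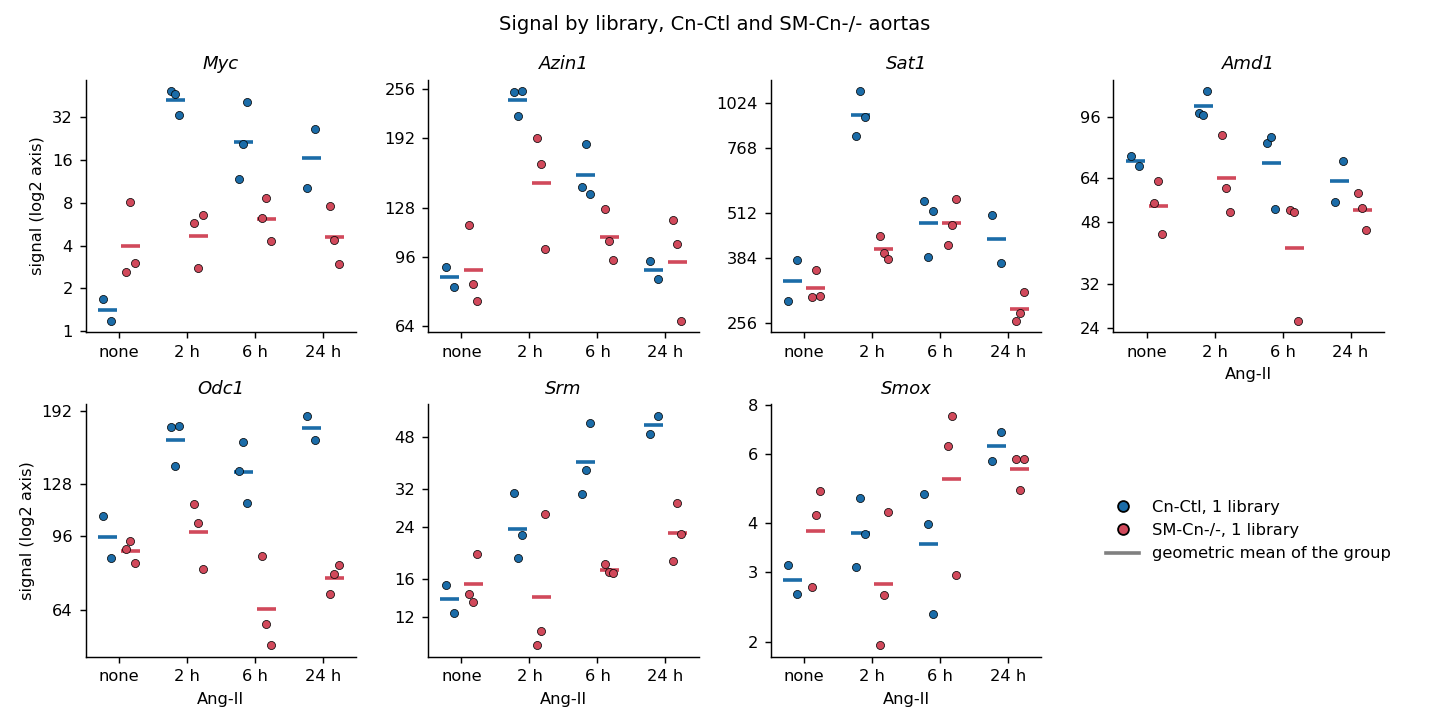
Signal of the 7 genes (log2 axis) in Cn-Ctl (blue) and SM-Cn-/- (red) aortas without Ang-II and after 2, 6 and 24 h; each point is 1 library (pool of 3 aortas) and each line the geometric mean of a group. The 8 treated Cn-Ctl libraries hold 10.2 to 48.6 Myc, above all 12 SM-Cn-/- libraries.

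In the drug experiment Myc rose in both arms. WT signal was 3.02, 2.72 and 2.17 untreated, 41.3, 21.1 and 51.8 at 2 h and 32.7, 47.2 and 21.6 at 24 h. With CsA it was 6.80, 5.77 and 6.14 untreated, 20.1, 32.5 and 31.5 at 2 h and 9.56, 13.4 and 19.9 at 24 h. All 3 untreated CsA libraries lay above all 3 untreated WT libraries, and at 24 h all 3 CsA libraries lay below all 3 WT libraries, while the arms overlapped at 2 h. In WT the difference from untreated was 3.54 ± 0.33 at 2 h and 3.39 ± 0.33 at 24 h (10.5-fold, limma adjusted p = 2.4e-06). With CsA it was 2.05 ± 0.33 at 2 h (adjusted p = 0.00058) and 1.08 ± 0.33 at 24 h, which missed the threshold (adjusted p = 0.0501). The latter passed without CsA 24 h replicate 1 (1.33, adjusted p = 0.0495), with quantile normalization (adjusted p = 0.016), median-ratio scaling, pseudocount 0.1 or a minimum group mean of 5, and by edgeR (adjusted p = 0.0402) and DESeq2 (adjusted p = 0.00537).

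Without Ang-II, Myc was higher in the CsA arm than in WT by 1.11 ± 0.33 on the log2 scale (limma adjusted p = 0.021). At 24 h of Ang-II it was lower in the CsA arm than in WT by 1.21 ± 0.33 (adjusted p = 0.043). The response at 24 h was therefore smaller with CsA, with a difference in response of -2.32 ± 0.46 (adjusted p = 0.009), which stayed past the threshold under all 23 alternatives, among them leaving out each of its 12 libraries. At 2 h the difference in response was -1.49 ± 0.46, given without a test. The untreated difference lost its call without WT replicate 2 or 3 or CsA replicate 1 or 3 (1.00 to 1.13, adjusted p = 0.0526 to 0.0818). It was also lost with quantile normalization (0.775, adjusted p = 0.0705). The 24 h difference lost its call without WT replicate 1 or 2 or CsA replicate 1 or 2 (-1.19 to -0.93, adjusted p = 0.0976 to 0.223).

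**Figure D2:**
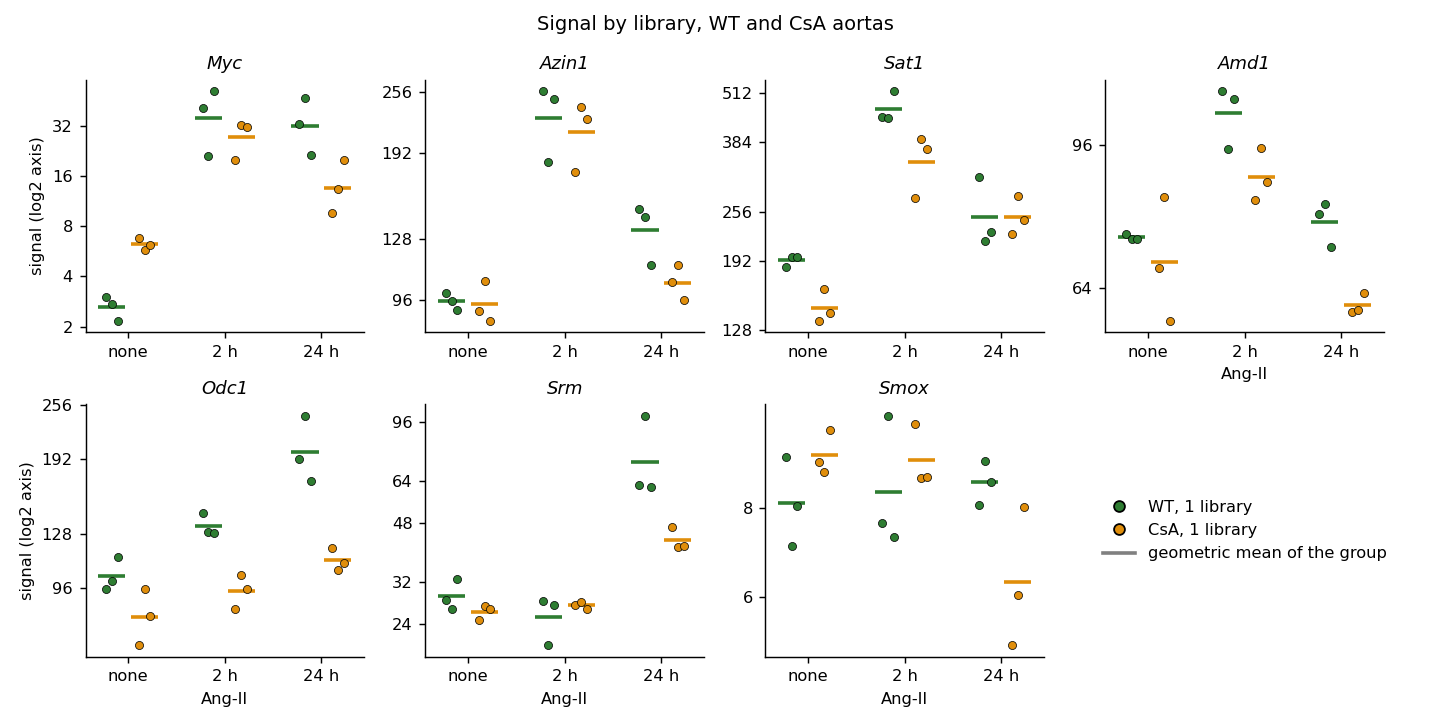
Signal of the 7 genes (log2 axis) in WT and CsA aortas without Ang-II and after 2 and 24 h; each point is 1 library and each line the geometric mean of a group. At 24 h, limma with all groups in the fit called Myc, Odc1 and Srm lower with CsA than in WT, beside 3.54% of all genes tested.

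Odc1 (ENSMUSG00000011179, chr12:17544794-17551505, plus strand), the first enzyme of polyamine synthesis, separated the genotypes after Ang-II over a smaller range than Myc. In Cn-Ctl its signal was 108 and 85.1 untreated, 175, 141 and 176 at 2 h, 138, 161 and 115 at 6 h, and 187 and 163 at 24 h. SM-Cn-/- aortas held 89.5, 93.3 and 82.8 untreated, 115, 104 and 80.2 at 2 h, 85.9, 59.0 and 52.6 at 6 h, and 69.8, 77.8 and 81.9 at 24 h. The genotypes did not overlap at any time of Ang-II. Over all times, the 8 treated Cn-Ctl libraries (115.2 to 186.6) lay above the 9 treated SM-Cn-/- libraries (52.6 to 114.8) by a narrow gap. The difference between genotypes was -0.73 ± 0.19 (log2) at 2 h, -1.08 ± 0.19 at 6 h (limma adjusted p = 0.0022) and -1.19 ± 0.21 at 24 h (adjusted p = 0.0014). The 24 h call held under every alternative, and the 6 h call was lost when only the groups compared entered the fit (adjusted p = 0.118).

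Within Cn-Ctl, Odc1 differed from untreated by 0.77 ± 0.21 at 2 h, 0.51 ± 0.21 at 6 h (adjusted p = 0.20) and 0.86 ± 0.23 at 24 h (adjusted p = 0.027). The 24 h call was lost without any 1 of its 4 libraries (Cn-Ctl 24 h replicates 2 and 3 and untreated replicates 2 and 3), at 0.69 to 1.03 with adjusted p = 0.0709 to 0.241. Within SM-Cn-/- the difference was 0.15 at 2 h, -0.46 ± 0.19 at 6 h (adjusted p = 0.21) and -0.21 ± 0.19 at 24 h (adjusted p = 0.74). The difference in response between genotypes at 24 h was -1.07 ± 0.29 and missed the threshold (adjusted p = 0.10).

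In the drug experiment Odc1 was 95.8, 99.7 and 113 in untreated WT, 144, 129 and 129 at 2 h and 191, 242 and 171 at 24 h. With CsA it was 70.7, 95.6 and 82.7 untreated, 86.0, 103 and 95.4 at 2 h and 119, 106 and 110 at 24 h. The 6 treated WT libraries (129 to 241.8) all lay above the 6 treated CsA libraries (86.0 to 119.2). Untreated CsA libraries already lay below untreated WT libraries, by a narrow gap (-0.32 ± 0.13, limma adjusted p = 0.078). This untreated difference passed by DESeq2 (adjusted p = 0.0477) and, with limma, without CsA untreated replicate 2 (-0.42, adjusted p = 0.0349). Odc1 rose 1.94-fold in WT at 24 h (0.95 ± 0.13 log2, limma adjusted p = 3.9e-05) and by 0.43 ± 0.13 with CsA (adjusted p = 0.044). CsA lay below WT at 24 h by 0.83 ± 0.13 (adjusted p = 0.0033), and the difference in response was -0.52 ± 0.18 (adjusted p = 0.078). The CsA response was lost without CsA untreated replicate 1 or 3 or any 24 h replicate (0.32 to 0.47, adjusted p = 0.0542 to 0.184), and the difference in response passed without CsA untreated replicate 1 or WT 24 h replicate 3 (both -0.63, adjusted p = 0.0389 to 0.0439).

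Srm (ENSMUSG00000006442, chr4:148591503-148594993, plus strand), which makes spermidine, was highest at the late times. In Cn-Ctl it was 15.4 and 12.3 untreated, 31.0, 18.8 and 22.6 at 2 h, 30.8, 37.1 and 53.4 at 6 h, and 48.9 and 56.3 at 24 h. In SM-Cn-/- it was 14.3, 13.4 and 19.4 untreated, 9.64, 10.7 and 26.4 at 2 h, 17.96, 16.98 and 16.8 at 6 h, and 18.4, 28.8 and 22.8 at 24 h. The genotypes overlapped untreated and at 2 h and did not overlap at 6 or 24 h. Srm rose in Cn-Ctl by 1.48 ± 0.35 at 6 h (limma adjusted p = 0.015) and by 1.89 ± 0.38 at 24 h (3.72-fold, adjusted p = 0.0047). In SM-Cn-/- the 24 h difference was 0.55 ± 0.31 (adjusted p = 0.53). Between genotypes the difference was -1.17 ± 0.31 at 6 h and -1.18 ± 0.35 at 24 h, both just short of the threshold (adjusted p = 0.052 for each), and the 6 h difference passed without Cn-Ctl 6 h replicate 1 (-1.34, adjusted p = 0.048). DESeq2 called both (adjusted p = 0.0169 at 6 h and 0.0227 at 24 h).

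The Cn-Ctl calls of Srm were lost without 6 h replicate 3 or untreated replicate 2 or 3 at 6 h (1.27 to 1.64, adjusted p = 0.0713 to 0.195) and without 24 h replicate 3 or untreated replicate 3 at 24 h (1.74 to 1.79, adjusted p = 0.0619 to 0.064). In WT Srm was 28.2, 26.5 and 32.6 untreated, 28.1, 20.7 and 27.3 at 2 h and 62.1, 99.8 and 61.5 at 24 h. With CsA it was 24.6, 27.1 and 26.5 untreated, 27.4, 27.8 and 26.5 at 2 h and 46.7, 40.5 and 40.9 at 24 h. Both arms overlapped their untreated libraries at 2 h and lay above them at 24 h. The rise at 24 h was 2.48-fold in WT (1.31 ± 0.16 log2, adjusted p = 1.6e-05), which held under every alternative, and 0.70 ± 0.16 with CsA (adjusted p = 0.013), and CsA lay below WT at 24 h by 0.76 ± 0.16 (adjusted p = 0.014). The rise with CsA was lost without CsA untreated replicate 1 or 24 h replicate 1 (0.63 to 0.66, adjusted p = 0.0553 to 0.0607), and the difference at 24 h without replicate 2 of either arm (-0.72 to -0.53, adjusted p = 0.054 to 0.0659).

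Amd1 (ENSMUSG00000075232, chr10:40287458-40302186, minus strand), the other decarboxylase of the pathway, was highest at 2 h and back near its untreated level at 24 h. In Cn-Ctl it was 74.1 and 69.4 untreated, 98.2, 97.2 and 114 at 2 h, 80.7, 84.1 and 52.5 at 6 h, and 54.9 and 71.8 at 24 h. SM-Cn-/- libraries stood at 54.6, 63.2 and 44.6 untreated and 25.2 to 85.1 after Ang-II. The genotypes did not overlap untreated, at 2 h or at 6 h, and overlapped at 24 h, and no test of Amd1 in this experiment passed. The difference between genotypes was -0.68 ± 0.25 at 2 h and -0.80 ± 0.25 at 6 h (limma adjusted p = 0.11). In WT Amd1 was 74.5, 73.6 and 73.5 untreated, 112, 95.0 and 109 at 2 h and 78.9, 81.2 and 71.8 at 24 h, and with CsA 67.8, 82.9 and 58.3, then 82.2, 95.2 and 86.5, then 59.8, 60.2 and 63.1. The 2 h difference from untreated was 0.51 ± 0.11 in WT and 0.35 ± 0.11 with CsA (adjusted p = 0.03). The latter was lost without CsA untreated replicate 1 or 3 or CsA 2 h replicate 2 or 3 (0.23 to 0.36, adjusted p = 0.0541 to 0.151) and with quantile normalization (adjusted p = 0.141). Amd2, a near-identical copy that can share reads with Amd1, had a group mean of at most 3.62.

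Azin1 (ENSMUSG00000037458, chr15:38487427-38519266, minus strand) had its highest group mean at 2 h in every arm, SM-Cn-/- included. In Cn-Ctl it was 90.5 and 80.6 untreated, 252, 219 and 253 at 2 h, 145, 186 and 139 at 6 h, and 93.6 and 84.5 at 24 h. In SM-Cn-/- it was 116, 82.0 and 74.2 untreated, 193, 166 and 101 at 2 h, 127, 105 and 94.2 at 6 h, and 119, 103 and 66.2 at 24 h. At 2 h and at 6 h all 3 Cn-Ctl libraries lay above all 3 SM-Cn-/- libraries, and at 24 h the genotypes overlapped. The difference between genotypes at 6 h was -0.52 ± 0.23 (limma adjusted p = 0.31). Cn-Ctl at 2 h differed from untreated by 1.49 ± 0.26 and SM-Cn-/- by 0.73 ± 0.23. The Cn-Ctl difference was 0.86 ± 0.26 at 6 h (limma adjusted p = 0.066) and 0.06 at 24 h (adjusted p = 0.94). That at 6 h passed by DESeq2 (adjusted p = 0.0165) and with the replicate block (adjusted p = 0.0399). In WT Azin1 was 99.5, 95.7 and 91.8 untreated, 256, 184 and 247 at 2 h and 147, 142 and 114 at 24 h, and with CsA 91.3, 105 and 87.3, then 175, 238 and 226, then 104, 113 and 96.0. The arms overlapped untreated and at 2 h, and at 24 h all 3 WT libraries lay above the CsA libraries. The difference at 2 h was 1.24 ± 0.14 in WT and 1.16 ± 0.14 with CsA (adjusted p = 6.6e-05, held under every alternative). At 24 h it was 0.48 ± 0.14 in WT (adjusted p = 0.014), lost without WT 24 h replicate 1 or 2 (0.41 to 0.43, adjusted p = 0.0596 to 0.0607), and the CsA minus WT difference was -0.35 ± 0.14 (adjusted p = 0.14).

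Sat1 (ENSMUSG00000025283, chrX:155213132-155216449, minus strand), the acetyltransferase of polyamine breakdown and the most abundant member, was also highest at 2 h in Cn-Ctl. In Cn-Ctl it was 294 and 379 untreated, 827, 1099.5 and 935 at 2 h, 551, 387 and 517 at 6 h, and 505 and 373 at 24 h. In SM-Cn-/- it was 300.5, 356 and 302 untreated, 443, 398 and 382 at 2 h, 417, 473 and 558 at 6 h, and 259, 272 and 311 at 24 h. The lowest Cn-Ctl library at 2 h thus lay above the highest SM-Cn-/- library at any time, whereas at 6 h the genotypes overlapped. Cn-Ctl at 2 h differed from untreated by 1.50 ± 0.20 and SM-Cn-/- by 0.35 ± 0.17. The SM-Cn-/- difference was larger at 6 h, at 0.59 ± 0.17, which missed the threshold (limma adjusted p = 0.076) and passed by DESeq2 (adjusted p = 0.0194). Between genotypes it was -1.22 ± 0.17 at 2 h, 0.00 at 6 h (limma adjusted p = 1) and -0.63 ± 0.20 at 24 h (adjusted p = 0.065).

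With and without CsA, Sat1 was highest at 2 h. WT signal was 185, 196 and 197 untreated, 445, 443 and 518 at 2 h and 314, 216 and 227 at 24 h, and CsA signal was 135, 163 and 141 untreated, 278, 392 and 370.3 at 2 h and 225, 280.2 and 244 at 24 h. CsA lay below WT untreated and at 2 h with no overlap, and the arms overlapped at 24 h. The 2 h difference was 1.28 ± 0.15 in WT and 1.23 ± 0.15 with CsA (limma adjusted p = 6.1e-05). At 24 h it was 0.37 ± 0.15 in WT (adjusted p = 0.061) and 0.77 ± 0.15 with CsA (adjusted p = 0.0057). Both CsA calls held under every alternative, and the WT difference at 24 h passed without WT 24 h replicate 2 (0.47, adjusted p = 0.0402). The CsA minus WT difference was -0.40 ± 0.15 untreated (adjusted p = 0.058) and 0.00 at 24 h (adjusted p = 1).

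Smox (ENSMUSG00000027333, chr2:131491496-131525922, plus strand), which oxidizes spermine, was low throughout and was called by limma in no tested comparison. Cn-Ctl libraries held a signal of 2.35 to 6.86 (7 to 41 reads) and SM-Cn-/- libraries 1.96 to 7.52. In the drug experiment, WT libraries held 7.06 to 10.8 and CsA libraries 5.12 to 10.5. The largest of its tested differences was 1.01 ± 0.48, in Cn-Ctl at 24 h (limma adjusted p = 0.25). With CsA at 24 h it was -0.56 ± 0.17 (adjusted p = 0.052), and past the threshold without CsA 24 h replicate 3 (-0.72, adjusted p = 0.0146), with a minimum group mean of 5 (adjusted p = 0.0477) and by DESeq2 (adjusted p = 0.0464).

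**Figure D3:**
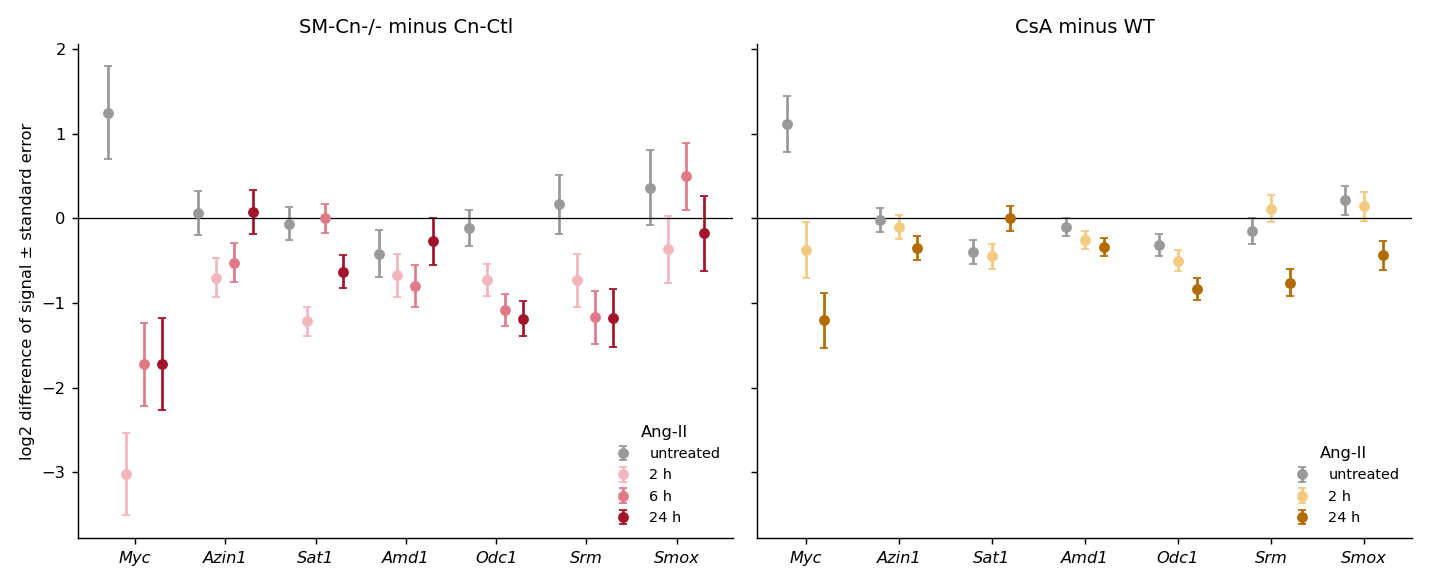
Log2 difference of signal ± SE for each gene, SM-Cn-/- minus Cn-Ctl (left) and CsA minus WT (right), untreated and at each time of Ang-II. Odc1 stands at -1.19 and -0.83 and Srm at -1.18 and -0.76 at 24 h in the genotype and the drug comparison, whereas Azin1 stands at 0.07 and -0.35.

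Counted over the 7 members, calls (limma, adjusted p under 0.05) stand beside the share of all genes tested that was called in the same direction. Against untreated Cn-Ctl, 2 members were higher at 6 h (2.72% of all genes) and 3 at 24 h (3.22%). Apart from Myc, these were Srm at 6 h, and Odc1 and Srm at 24 h. The genes were chosen by the response of Myc in this experiment. Nothing is therefore read from its part in any genotype count given here. Myc is also in the counts at an unadjusted p under 0.05 between untreated genotypes and for the difference in response. In SM-Cn-/- limma called 0 members in either direction at 6 h (2.34%) and 24 h (0.79%). At an unadjusted p under 0.05, 2 passed at 6 h and 0 at 24 h, edgeR called 0 at each time, and DESeq2 called 1 and 0. Between untreated genotypes 0 members differed (0.0139%), with 1 at an unadjusted p under 0.05 and 0 by edgeR or DESeq2. After Ang-II, 1 member, Odc1, was lower in SM-Cn-/- at 6 h (1.44%) and at 24 h (2.68%). The response differed between genotypes by limma for 0 members at 6 h (0.0624%) and 0 at 24 h (0.354%), with 3 at an unadjusted p under 0.05 at each time, 0 by edgeR, and 1 and 2 by DESeq2.

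In WT, 4 members were higher at 24 h (18.1% of all genes), and with CsA 4 were higher at 2 h (12.3%) and 3 at 24 h (5.20%). Of all genes, 25.2% differed between untreated CsA and WT in either direction, against 1 member, Myc. CsA lay below WT at 24 h for 3 members (3.54%). The difference in response between CsA and WT was called lower for 1 member, Myc, at 24 h (4.89%). For the 2 h comparisons that the choice of genes may have used, the counts follow from that choice and nothing is read from them. They were 4 members higher in Cn-Ctl (4.72% of all genes), 0 in SM-Cn-/- by limma, edgeR or DESeq2 (1.13%), 3 lower in SM-Cn-/- than in Cn-Ctl (2.97%), 2 with a lower response (0.492%), 5 higher in WT (11.4%), and 0 lower with CsA than in WT by limma or edgeR and 2 by DESeq2 (0.939%). Likewise set aside, the response at 2 h differed between CsA and WT for 0 members by limma or edgeR and 1 by DESeq2. Of all genes, 0.124% were called lower there.

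The comparison of CsA with WT at 24 h depends on which libraries entered the fit. With limma fitted on its 6 libraries alone, 0 of 13738 genes passed (2786 at an unadjusted p under 0.05), against 766 with all 18 libraries, 753 by edgeR and 1538 by DESeq2, and the adjusted p rose to 0.129 for Myc, 0.0732 for Odc1 and 0.119 for Srm. Quantile normalization shifted the balance of calls over all genes. It gave 449 higher and 241 lower in Cn-Ctl at 2 h (681 and 218 as deposited), 344 and 266 at 6 h (392 and 180), 106 and 238 between genotypes at 2 h (105 and 429) and 1078 and 1613 in WT at 2 h (1562 and 1375). For CsA against WT it gave 1547 and 2341 untreated (1904 and 1560) and 13 and 55 at 2 h (54 and 129), and for the difference in response at 24 h 911 and 593 (622 and 672). No scaling turned the direction of a member difference with an adjusted p under 0.1. Quantile normalization made 7 member differences at 2 h smaller by at least the spread within groups. In Cn-Ctl, Sat1 went from 1.50 to 1.04 and Odc1 from 0.77 to 0.50. Between genotypes, Sat1 went from -1.22 to -0.85. In WT, Sat1 went from 1.28 to 0.94, Azin1 from 1.24 to 0.94, Amd1 from 0.51 to 0.31 and Odc1 from 0.38 to 0.15.

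The other genes of the polyamine pathway are described by role. Of the 6 transport genes tested, Slc7a1, which imports the ornithine precursor arginine, rose in Cn-Ctl at 2 h by 1.77 ± 0.26 (limma adjusted p = 8.9e-05), in SM-Cn-/- by 1.20 ± 0.23 (adjusted p = 0.0086), in WT by 1.42 ± 0.20 (adjusted p = 9.1e-05) and with CsA by 1.46 ± 0.20 (adjusted p = 0.00016). Slc7a1 was lower in SM-Cn-/- than in Cn-Ctl at 24 h by 1.07 ± 0.26 (adjusted p = 0.017) and lower with CsA than in WT by 1.08 ± 0.20 (adjusted p = 0.0071). Slc3a2, the heavy chain of several amino acid transporters, rose at 24 h by 0.92 ± 0.21 in Cn-Ctl (adjusted p = 0.011) and 0.90 ± 0.10 in WT (adjusted p = 1.1e-05). Atp13a3, a P5-type ATPase of polyamine uptake, rose at 2 h by 1.24 ± 0.30 in Cn-Ctl (adjusted p = 0.014). Of these 6 genes, 3 were higher and 0 lower in Cn-Ctl at 2 h (681 and 218 of all 14424 genes), 3 and 3 in WT at 2 h (1562 and 1375 of 13738), and 3 and 1 in WT at 24 h (2483 and 2324).

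Of the 3 other synthesis genes tested (Arg1, Amd2, Sms), Arg1 alone was called in any comparison, rising by 4.40 ± 0.61 in WT at 24 h (limma adjusted p = 5.1e-05) and lying lower with CsA at 24 h by 3.09 ± 0.61 (adjusted p = 0.011). The latter call was made by limma only, and edgeR and DESeq2 called 0 of the 3 genes there. Arg1, arginase, is also abundant in some macrophages, and the summed signal of 5 macrophage markers was 51.2 to 70.3 in untreated WT, 132.2 to 189.6 in WT at 24 h and 110.8 to 139.4 with CsA at 24 h. Their part in the Arg1 result was not tested. Among the antizyme genes, Oaz2, an inhibitor of ornithine decarboxylase, fell at 24 h by 0.66 ± 0.19 in Cn-Ctl (adjusted p = 0.046) and by 0.66 ± 0.11 in WT (adjusted p = 0.00022). Sat2 fell in WT at 24 h by 0.75 ± 0.20 (adjusted p = 0.0078). Eif5a, the translation factor that carries the spermidine-derived residue hypusine, rose at 24 h by 0.72 ± 0.18 in Cn-Ctl (adjusted p = 0.019), 0.76 ± 0.09 in WT (adjusted p = 2.3e-05) and 0.43 ± 0.09 with CsA (adjusted p = 0.012). It was lower in SM-Cn-/- than in Cn-Ctl at 24 h by 0.67 ± 0.16 (adjusted p = 0.017) and lower with CsA than in WT by 0.39 ± 0.09 (adjusted p = 0.028).

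Of 10 tested genes of the Myc network, 1 was higher and 3, all antagonists that compete for Max, were lower in WT at 24 h (2483 and 2324 of all 13738 genes). Mxd1 fell by 0.78 ± 0.13 (limma adjusted p = 2.0e-04), Mxi1 by 0.74 ± 0.15 (adjusted p = 0.0014) and Mnt by 0.54 ± 0.11 (adjusted p = 0.00097), while Mlx, which pairs with some of them, was the gene that rose. Mxd4, a further antagonist, was not called there. Mxd1 was higher with CsA than in WT at 24 h by 0.50 ± 0.13 (adjusted p = 0.032) and Mxd4 by 0.38 ± 0.09 (adjusted p = 0.022), and Mxi1 was higher in SM-Cn-/- than in Cn-Ctl at 24 h by 1.26 ± 0.31 (adjusted p = 0.02). Max was called in no comparison.

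Aortas were also compared on 24 nucleolar and ribosome assembly genes known as Myc targets, all of which were tested. In WT 23 of the 24 were higher at 24 h and 0 lower, with a median difference of 0.76 (log2) against 0.0035 over all genes tested, and only Ncl (0.31 ± 0.12, limma adjusted p = 0.055) missed the threshold. Rrp12, of ribosomal RNA processing, rose by 1.27 ± 0.18 (adjusted p = 6.4e-05), the small nucleolar ribonucleoprotein Nop58 by 1.14 ± 0.14 (adjusted p = 2.6e-05) and Nop16 by 1.12 ± 0.14 (adjusted p = 2.7e-05). At 2 h in WT 7 were higher and 1, Dkc1, lower. With CsA 7 were higher at 2 h and 3 at 24 h (Nop58, Gnl3 and Bysl), with a median of 0.25 at 24 h. The 3 became 0 with the replicate block or with the compared groups alone in the fit, and 7 with quantile normalization or DESeq2. CsA lay below WT at 24 h for 19 of the 24 (median -0.56, all genes 0.0019), among them Rrp12 (-0.94 ± 0.18, adjusted p = 0.0098), Nop58 (-0.78 ± 0.14, adjusted p = 0.0079) and Gnl3 (-0.76 ± 0.15, adjusted p = 0.011). This count was 0 when limma was fitted on the 6 libraries alone, and 18 by edgeR and 22 by DESeq2. Of all genes tested, limma called 11.4% higher in WT at 2 h and 18.1% at 24 h. With CsA it called 12.3% higher at 2 h and 5.20% at 24 h, and 3.54% lower than in WT at 24 h.

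In the genotype experiment, 3 of the 24 were higher in Cn-Ctl at 2 h and 3 at 24 h (Fbl, Nop2 and Ppan), with a median of 0.61 at 24 h, and Fbl, the nucleolar methyltransferase fibrillarin, rose by 1.31 ± 0.30 (limma adjusted p = 0.011). In SM-Cn-/- limma called 0 of the 24 at 24 h, with a median of 0.04, 1 at an unadjusted p under 0.05 and 0 by edgeR or DESeq2. SM-Cn-/- lay below Cn-Ctl at 24 h for 7 of the 24 and above for 0 (median -0.81, all genes 0.043), among them Bysl (-1.38 ± 0.31, adjusted p = 0.011), Nop58 (-1.06 ± 0.27, adjusted p = 0.025) and Fbl (-1.01 ± 0.27, adjusted p = 0.035). Fitted on the groups compared alone, the 7 became 1 and the 3 of Cn-Ctl at 24 h became 0. The 3 of Cn-Ctl at 2 h became 0 with quantile normalization and 1 with median-ratio scaling, and edgeR called 1 higher and 1 lower. Of all genes tested, limma called 4.72% higher in Cn-Ctl at 2 h and 3.22% at 24 h. It called 0.79% in either direction in SM-Cn-/- at 24 h, and 2.68% lower in SM-Cn-/- than in Cn-Ctl at 24 h.

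**Figure D4:**
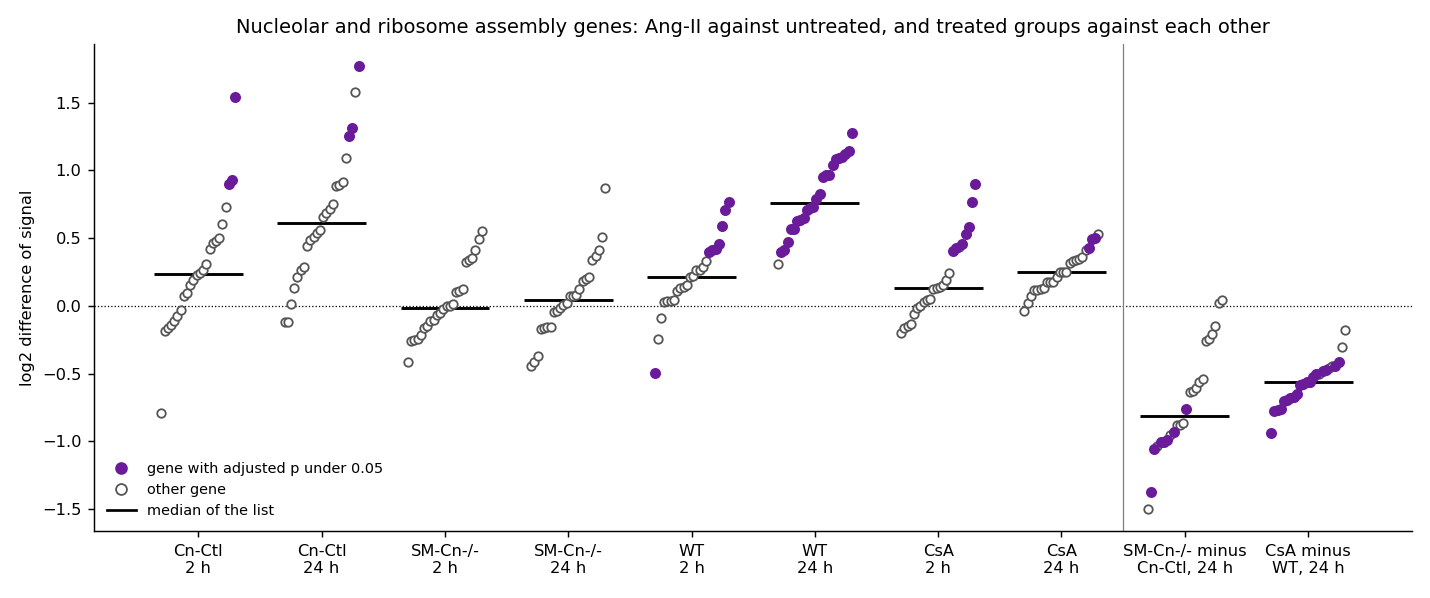
Log2 difference of signal for 24 nucleolar and ribosome assembly genes, Ang-II against untreated in each arm at 2 and 24 h and, right of the line, treated groups against each other at 24 h. Each point is 1 gene, filled where adjusted p is under 0.05 (limma), and the bar is the median of the list, 0.76 in WT and 0.25 with CsA at 24 h.

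Likeness among the members was described across the 14 group means, each centred within its experiment. These correlations (Pearson, n = 14 groups on log2 signal) include groups that the choice of genes may have used. Such groups are those at 2 h and, for Myc, all groups of the genotype experiment. Groups also share a library set within an experiment. The correlations were 0.886 for Azin1 with Sat1, 0.799 for Myc with Sat1, 0.758 for Myc with Azin1, 0.73 for Odc1 with Srm, 0.728 for Amd1 with Azin1, 0.674 for Myc with Odc1, 0.664 for Amd1 with Sat1 and 0.612 for Amd1 with Odc1. Srm stood at 0.116 with Sat1, 0.0362 with Amd1 and -0.0225 with Azin1, and Azin1 at 0.37 with Odc1. Smox ran from -0.261 with Amd1 to 0.357 with Srm over the other members. The remaining pairs lay between 0.491 (Odc1 with Sat1) and 0.555 (Myc with Srm). Of 11045 other genes with a group mean of at least 5, those most like Myc were Hmox1 (r = 0.965), Relt (0.962) and Stat3 (0.955), and those most like Odc1 were Ckap4 (0.977), Tnc (0.969) and Gspt1 (0.959).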

How the data were processed

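Poly(A) RNA from pooled aortas was sequenced, and per the submitters' processing notes reads were aligned with Bowtie 0.12.7 and quantified with RSEM 1.16 against GRCm38. The authors deposited a normalized signal per gene and library in 2 tables, which were normalized separately, so tests were run only within a table; 1 untreated Cn-Ctl library had been discarded by the authors after principal component analysis. Every deposited signal was a whole read count plus 0.5 scaled to its library (100% of values within 0.01 of a whole read), so whole reads were recovered for edgeR 4.0.16 and DESeq2 1.42.0. On these, edgeR called 753 and DESeq2 1538 genes for CsA against WT at 24 h, against 766 by limma.

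Protein-coding genes with a signal of at least 1 in at least 2 libraries were tested with limma 3.58.1 (R 4.3.3, intensity trend) on log2(signal + 0.5), with 1 mean per group, all groups of a table in the fit and a Benjamini-Hochberg threshold of 0.05. Levels were summarized with Python 3.11.15. The fit was tested on simulated data. Groups came from the labels, and 0 value columns belonged to no sample. All 7 members were named; from each other list, genes with the largest differences among those past the threshold, with a group mean of at least 5 and no overlap between groups, were named, and others named were chosen after their values were seen. The members, lists and comparisons were chosen with earlier results of these data known. GC boxes and the TATA-type motif were searched after the sequences were seen. Replicate numbers were not used as a block, and alternatives were other pseudocounts, filters, scalings and tools, fits on the compared groups alone, a replicate block and leaving out each library.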

Additional observations from a re-analysis of the deposited data

Results flagged for a closer look

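Myc was singled out because its response to Ang-II differed between CsA and WT at 24 h by a test of the difference itself. The difference in response was -2.316 (log2, SE 0.46, limma adjusted p = 0.009), with untreated CsA libraries at 5.77 to 6.80 and untreated WT libraries at 2.17 to 3.02. Both the higher untreated level and the lower level at 24 h enter this value.

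Further genes were singled out by the same test on their list. Between CsA and WT at 24 h the response differed for 8 of 24 nucleolar genes, 6 of 14 metabolic and growth genes, 3 of the Myc network, 2 of transport, 2 of the methionine cycle, and 1 each of synthesis (Arg1, by limma only), the antizymes (Oaz2) and catabolism (Sat2), beside 1294 of all 13738 genes. Between genotypes it differed for 2 metabolic and growth genes at 2 h (Hspd1 and Hspe1) and 2 at 24 h (Eif4a1 and Nme1), beside 74 of all 14424 genes at each time. Groups held 2 or 3 libraries, so no search for a single outlying library was made.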

How the results depend on the processing

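For 40 member differences with an adjusted p under 0.1, the alternatives gave 695 values, of which 606 stayed on the same side of the threshold, 47 lost a call, 42 gained 1 and 0 changed direction. Differences of Myc in the genotype experiment are counted among them, though the choice of genes rests on that response, and nothing is read from their calls. With only the compared groups in the fit, the members called became 1 in Cn-Ctl at 6 h (2 in the report) and 1 at 24 h (3), 0 between genotypes at 6 h (1), 2 between untreated CsA and WT (1) and 0 between them at 24 h (3). DESeq2 called 1 in SM-Cn-/- at 6 h (0), 3 and 4 between genotypes at 6 and 24 h (1 and 1), 1 and 2 for the difference in response between genotypes at 6 and 24 h (0 and 0), 5 with CsA at 24 h (3), 3 and 2 between CsA and WT untreated and at 2 h (1 and 0), and 1 and 2 for the difference in response between CsA and WT at 2 and 24 h (0 and 1). A minimum group mean of 5 gave 2 between genotypes at 6 h and at 24 h and 5 with CsA at 24 h. Pseudocount 1, quantile normalization and median-ratio scaling gave 2 between genotypes at 24 h. The difference in response between genotypes at 2 h fell from 2 to 1 with all genes listed, quantile normalization, edgeR and the replicate block, and untreated CsA against WT became 0 with quantile normalization and 2 with median-ratio scaling. The cause was not tested.

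Over leaving out 1 library, the members called ranged from 1 to 2 in Cn-Ctl at 6 h and 0 to 2 at 24 h, 0 to 1 in SM-Cn-/- at 2 h, 1 to 3 and 1 to 2 between genotypes at 6 and 24 h, 0 to 2 and 0 to 1 for the difference in response between genotypes at 2 and 24 h, 1 to 3 with CsA at 24 h, 0 to 2 and 1 to 3 between CsA and WT untreated and at 24 h, and 1 to 2 for their difference in response at 24 h. A lone remaining library was assumed to vary like the other groups.

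The labels number replicates but name no shared litter or day. Same-numbered libraries deviated from their group means with a median correlation of 0.0587 (71 pairs, -0.374 to 0.339) and -0.0283 (45 pairs, -0.389 to 0.377), and 10 of 22 and 6 of 18 libraries correlated best with their own number. With the replicate block, 1 member was called in SM-Cn-/- at 2 h (0), 2 between genotypes at 6 h (1) and 1 in the difference in response at 2 h (2); the calls of Odc1 with CsA at 24 h (adjusted p = 0.0515) and of Myc between CsA and WT at 24 h (0.0663) were lost.

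Over all genes, fits on the compared groups alone called 131 in Cn-Ctl at 6 h (572) and 200 at 24 h (810), 45 and 321 between genotypes at 6 and 24 h (285 and 713), and 396 with CsA at 24 h (1233), and DESeq2 called 947 in Cn-Ctl at 6 h and 2005 for the difference in response to CsA at 24 h (1294). Depth limits Myc in untreated Cn-Ctl, at 6 and 11 reads, and Smox.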

Other observations

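Metabolic and growth genes known as Myc targets, 14 in number and all tested, moved with the nucleolar genes in WT. At 24 h in WT 11 rose and 1, Ccnd2, fell, and Nme1, a nucleoside diphosphate kinase, rose by 1.79 ± 0.19 (log2, limma adjusted p = 5.4e-06). With CsA 1 of the 14, Eif4a1, rose at 24 h. Nme1 was lower with CsA than in WT at 24 h by 0.87 ± 0.19 (adjusted p = 0.017) and lower in SM-Cn-/- than in Cn-Ctl at 24 h by 1.45 ± 0.27 (adjusted p = 0.0023), where Eif4a1, an RNA helicase of translation initiation, was lower by 1.01 ± 0.18 (adjusted p = 0.0014). Of all genes tested, 18.1% were higher in WT at 24 h and 5.20% with CsA at 24 h. At 24 h, 3.54% were lower with CsA than in WT and 2.68% lower in SM-Cn-/- than in Cn-Ctl.

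Mat2a makes S-adenosylmethionine, the substrate of Amd1. It rose at 2 h by 0.88 ± 0.17 in Cn-Ctl (limma adjusted p = 0.0014), 0.72 ± 0.10 in WT (adjusted p = 7.7e-05) and 0.62 ± 0.10 with CsA (adjusted p = 0.00052). The 9 genes of the methionine cycle list, Mat2a included, went both ways, with 2 higher and 3 lower in WT at 2 h and 2 higher and 4 lower with CsA at 2 h.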
